A study of Mus musculus with 4 samples.

Results

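Laminins, nidogens and integrins are the proteins by which an epithelium builds its basement membrane and by which cells hold on to it. Their transcripts were examined in lower molar germs of embryonic NMRI mice. All probe sets with a single gene symbol for a laminin chain, a nidogen or an integrin subunit were taken, together with those for Hspg2, Agrn and Dag1. This gave 55 probe sets of 34 genes, out of 12422 probe sets and 8251 named genes in all. The pattern also takes in Itgb1bp1, which encodes a protein that binds an integrin tail and is no integrin itself.

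Tooth germs were dissected at embryonic day 14 and kept in organ culture for 24 h. The TCDD group received 1 µM of 2,3,7,8-tetrachlorodibenzo-p-dioxin, a ligand of the aryl hydrocarbon receptor, and the control group received its solvent DMSO at 0.65%. For the TCDD group no DMSO percentage is given. Each group had 2 arrays (murine U74v2A), and each array was hybridised with RNA of about 60 pooled explants from 3 experiments, so that p-values measure the spread between pools. The embryos came from NMRI crosses with no genetic change named, and all media held serum. Ascorbic acid is listed in the medium of DMSO replicate 2 alone, and labelling started from 11 µg of total RNA for both replicate 1 arrays, 7 µg for DMSO replicate 2 and 8 µg for TCDD replicate 2.

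A laminin is a trimer of an alpha, a beta and a gamma chain that polymerises into a sheet beneath an epithelium. Nidogens and perlecan tie this sheet to the collagen IV network, and agrin links laminin to dystroglycan at the cell surface. Integrins are receptors of an alpha and a beta subunit that bind these ligands outside the cell and the actin or keratin cytoskeleton inside it. In the tooth, the basement membrane lies between the dental epithelium and the dental mesenchyme, and signals between both tissues pass across it.

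Values are MAS5 signals on a linear scale, with each array scaled to a target of 100. Fold differences are on the scale of log2(signal + 16), which understates the change of dim probe sets. Of the 55 probe sets, 27 probe sets of 19 genes had a mean signal of at least 50 over the 4 arrays and entered the test. The other 28 were dimmer, and 15 genes had no probe set above that minimum. Probe sets differ in how strongly they hybridise, so signals are compared between arrays and not between genes. The label of the tissue was checked on marker genes. Of 9 dental mesenchyme markers on the array 8 reached the minimum, among them Msx1, Barx1, Lhx6 and Lhx8. Of 9 markers of oral and dental epithelium 6 did, among them Shh, Cdh1, Krt17 and Dsp, while Krt5, Krt14 and Krt15 had signals between 0.6 and 10.8 on all arrays. The arrays hold whole explants, so fewer cells of a type and less RNA per cell cannot be told apart.

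None of the 27 tested probe sets differed between TCDD and DMSO past an adjusted p of 0.05 in limma, against 0.0692% of all 5783 probe sets tested (4 of them). At an unadjusted p under 0.05 in limma there was 1, a probe set of Itga7, against 2.59% of all. All 27 had a limma adjusted p of 0.997. The standard errors ran from 0.16 to 0.4 on the log2 scale, with a median of 0.22. For 24 of the 27 the 95% interval of the difference stayed within 1 on the log2 scale in either direction, which is a ratio of 2, and for the other 3 it did not. In the plot of differences with their intervals, those 3 were the dimmer probe set of Lamb3, the probe set of Itga7 and the dimmest of Itgb1bp1.

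**Figure D1:**
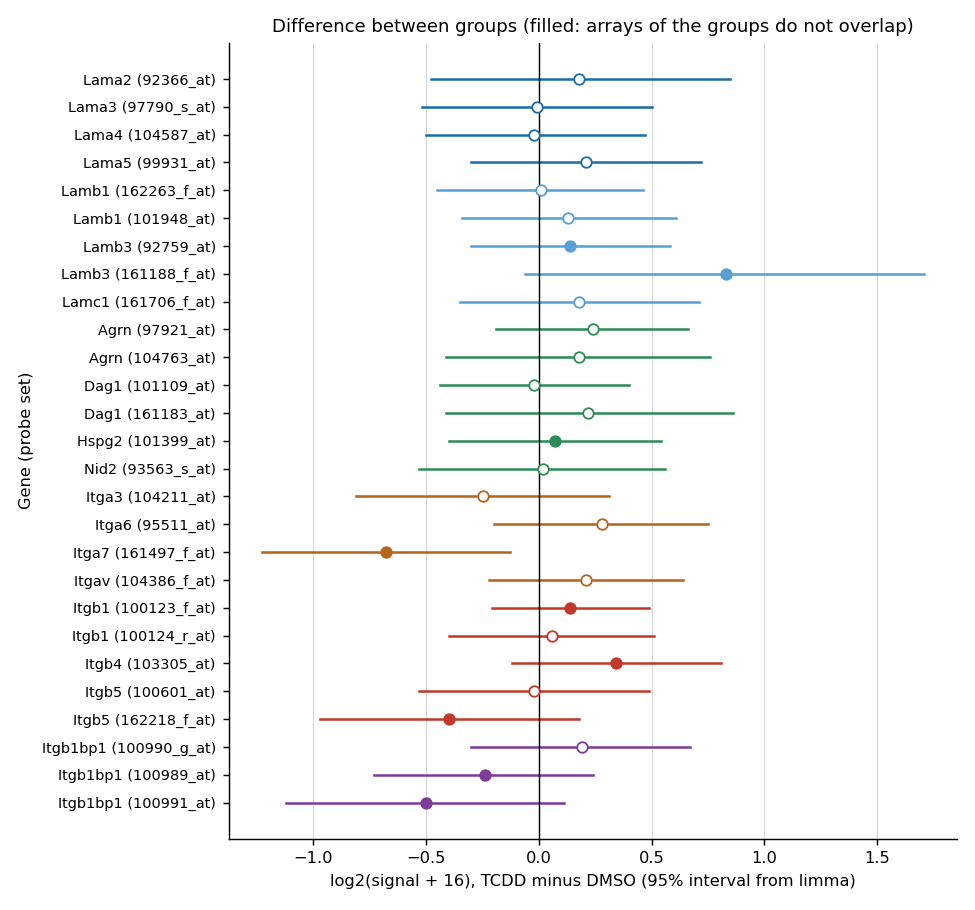
Difference between groups for the 27 probe sets that reached the minimum. The horizontal axis is the mean of log2(signal + 16) in TCDD minus that in DMSO (2 arrays each), bars are 95% intervals from limma, filled points mark probe sets whose arrays do not overlap between groups, and colours mark the roles of the genes. The interval of 26 probe sets includes 0, and that of Itga7 runs from -1.23 to -0.13.

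More of the differences lay above 0 than below. In TCDD 18 of the 27 were higher, against 51.1% of all probe sets tested, and the median difference was 0.13 on the log2 scale, against 0.01 for all. This median was 0.01 without TCDD replicate 2 and 0.06 without DMSO replicate 1, and over all 55 probe sets it was also 0.01. The 28 dimmer members had a median of -0.12, near the -0.1 of all 6639 probe sets under the minimum. Of those 6639, 71.1% were lower in TCDD, against 16 of the 28 dimmer members. Both TCDD arrays lay below both DMSO arrays in 12 of the 28, against 26.2% of the 6639. They lay above in 3, against 6.88%. In 9 of the 27 (33.3%) all TCDD arrays lay on one side of all DMSO arrays, 5 with TCDD higher and 4 with TCDD lower. Among all probe sets tested this held for 29.8%, 15.3% with TCDD higher and 14.6% with TCDD lower. The share of the 27 lay near this background.

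The receptor that TCDD binds recognises DNA with the core GCGTG. RefSeq windows of GRCm38.p6 were found for 22 of the 34 genes. Both strands of the 250 bases before each start site were searched, counting GCGTG and its complement CACGC. The core was present in 10 of 26 windows (38.5%), against 28.2% of 32851 windows of all genes, and at 9 of the 22 genes, against 30.9% of all 27025 genes with a window. Both windows of Dag1 hold it, and they overlap and so share letters. Windows that hold the core at genes with both TCDD arrays below both DMSO arrays are not printed. The windows below hold most matches (Dag1), or hold the core at genes whose TCDD arrays lay above both DMSO arrays (Hspg2 and Lamb3). They run 5′ to 3′ on the gene's strand, and capitals mark the core. A match is a description of letters and no site of binding.
Dag1, GRCm38.p6 chr9:108263959-108264208, minus strand: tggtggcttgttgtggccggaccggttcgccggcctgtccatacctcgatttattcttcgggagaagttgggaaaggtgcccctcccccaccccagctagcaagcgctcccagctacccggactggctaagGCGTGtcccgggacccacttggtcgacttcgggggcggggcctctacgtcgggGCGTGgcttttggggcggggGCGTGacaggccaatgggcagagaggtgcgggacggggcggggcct
Hspg2, GRCm38.p6 chr4:137468553-137468802, plus strand: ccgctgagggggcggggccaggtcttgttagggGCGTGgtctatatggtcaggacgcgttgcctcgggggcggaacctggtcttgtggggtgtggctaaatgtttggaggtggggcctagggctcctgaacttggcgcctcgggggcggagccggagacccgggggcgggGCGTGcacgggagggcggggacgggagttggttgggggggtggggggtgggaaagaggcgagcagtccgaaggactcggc
Lamb3, GRCm38.p6 chr1:193301744-193301993, plus strand: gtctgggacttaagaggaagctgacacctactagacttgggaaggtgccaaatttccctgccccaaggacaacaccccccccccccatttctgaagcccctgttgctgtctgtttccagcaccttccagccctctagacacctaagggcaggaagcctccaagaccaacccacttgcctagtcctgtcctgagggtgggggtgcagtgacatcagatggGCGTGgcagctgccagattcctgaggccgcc

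The Dag1 window held 3 matches, that of Hspg2 held 2 and that of Lamb3 held 1, all reading GCGTG on the gene's strand. The other start site of Lamb3 had 0 matches in its window. The window of Itgb1 also had 0 matches, although both TCDD arrays lay above both DMSO arrays on its brighter probe set. Both windows of Itga3, higher in this way on its dimmer probe set alone, had 0 matches too. For Itgb4, likewise higher on both TCDD arrays, no window was found. An upstream window of Agrn held 2 matches, both as CACGC, and 1 match each was found for Itga2, Itgax, Itgb1bp1, Itgb5 and Lamb1. Itga2 and Itgax were under the minimum and did not enter the limma test, and none of the others passed it. Both TCDD arrays lay below both DMSO arrays for Itga2, Itgax, the dimmer probe set of Itgb5 and the 2 dimmer ones of Itgb1bp1. On the other probe sets of Itgb5 and Itgb1bp1, and on those of Agrn, Dag1 and Lamb1, the groups overlapped. The core was thus found at genes lower in TCDD as well as at higher ones.

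Among the laminin alpha chains, which carry the cell-binding globular domains, Lama2, Lama3, Lama4 and Lama5 were measured. Lama5, the most widespread alpha chain of epithelial basement membranes, had signals of 76.5 and 89.0 on the DMSO arrays and of 83.4 and 114.8 on the TCDD arrays (99931_at). The groups overlapped, with a log2 difference of 0.21 ± 0.23 (SE), and both replicate 2 arrays lay above both replicate 1 arrays. Lama3, the alpha chain of the laminin that anchors hemidesmosomes, had 79.2 and 59.8 on the DMSO arrays and 67.4 and 69.4 on the TCDD arrays (97790_s_at). Its TCDD arrays both lay between the DMSO arrays.

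Lama2 and Lama4 are alpha chains of mesenchymal, muscle and vascular basement membranes. Lama2 had signals of 34.3 and 68.2 on the DMSO arrays and of 45.3 and 73.2 on the TCDD arrays (92366_at). Lama4 had 133.5 and 175.0 on the DMSO arrays and 135.1 and 168.5 on the TCDD arrays (104587_at). For both genes the arrays grouped by replicate number, with both replicate 2 arrays above both replicate 1 arrays, and the log2 differences between TCDD and DMSO were 0.18 ± 0.3 and -0.02 ± 0.22 (SE). Lama1, the alpha chain of early embryonic and some epithelial basement membranes, was dim, between 21.8 and 38.2.

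Lamb1 and Lamc1 encode the beta and gamma chains shared by most laminins. Lamb1 had 2 probe sets. One (162263_f_at) had 123.0 and 120.6 on the DMSO arrays and 133.4 and 112.2 on the TCDD arrays, and the other (101948_at) had 100.5 and 127.5 on the DMSO arrays and 135.4 and 117.0 on the TCDD arrays. On both, the groups overlapped, and the log2 differences were 0.01 and 0.13. Lamc1 had 97.4 and 130.1 on the DMSO arrays and 107.6 and 156.2 on the TCDD arrays (161706_f_at), again with both replicate 2 arrays above both replicate 1 arrays, and a log2 difference of 0.18 ± 0.24 (SE). Lamb2, a beta chain of muscle, nerve and kidney basement membranes, stayed just under the minimum, with 37.5 and 45.8 on the DMSO arrays and 53.7 and 43.1 on the TCDD arrays.

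Lamb3 encodes the beta chain that pairs with Lama3 in the hemidesmosomal laminin. Its brighter probe set (92759_at) had signals of 150.6 and 132.6 on the DMSO arrays and of 156.4 and 158.2 on the TCDD arrays. The groups did not overlap, but the log2 difference was 0.14 ± 0.2 (SE), with 0.22 without DMSO replicate 1 and 0.06 without DMSO replicate 2. The dimmer probe set (161188_f_at) had 12.8 and 66.9 on the DMSO arrays and 69.9 and 71.6 on the TCDD arrays. Here 3 arrays lay close together and DMSO replicate 1 alone was low, at a value that had been stored as a day serial. The log2 difference of 0.83 ± 0.4 (SE) for this probe set was 0.07 without DMSO replicate 1, and 1.59 without DMSO replicate 2 with a limma adjusted p of 0.0588. It was 1.23 at an offset of 1 and 0.43 at an offset of 64. Without TCDD replicate 2 the mean signal of this probe set was under the minimum.

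Among the proteins that link the laminin sheet to collagen IV and to cells, Nid2, a nidogen, had signals of 68.3 and 79.2 on the DMSO arrays and of 59.4 and 93.2 on the TCDD arrays (93563_s_at). The TCDD arrays lay on both sides of the DMSO arrays, and the log2 difference was 0.02 ± 0.25 (SE). Here too both replicate 2 arrays lay above both replicate 1 arrays. Nid1, the other nidogen, was dim on its probe set, with 21.0 and 11.2 on the DMSO arrays and 14.0 and 16.9 on the TCDD arrays. Hspg2, which encodes the heparan sulphate proteoglycan perlecan, had 79.2 and 78.4 on the DMSO arrays and 84.7 and 82.6 on the TCDD arrays (101399_at). Its groups did not overlap, the replicates of each group lay close together, and the difference was 0.07 ± 0.21 (SE) on the log2 scale.

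Agrn encodes agrin, a proteoglycan of basement membranes and of the neuromuscular junction. Its brighter probe set (97921_at) had 443.5 and 565.1 on the DMSO arrays and 564.3 and 623.6 on the TCDD arrays, and the other (104763_at) had 141.9 and 168.6 on the DMSO arrays and 130.3 and 238.5 on the TCDD arrays. Both showed replicate 2 above replicate 1 in each group, with log2 differences between the groups of 0.24 ± 0.19 and 0.18 ± 0.27 (SE). Dag1 encodes dystroglycan, a laminin and agrin receptor that is no integrin. It had 343.0 and 392.3 on the DMSO arrays and 345.7 and 376.7 on the TCDD arrays (101109_at), a log2 difference of -0.02 ± 0.19 (SE). Its dimmer probe set (161183_at) had 93.2 and 51.7 on the DMSO arrays and 105.6 and 67.0 on the TCDD arrays. The brighter probe set of Dag1 was higher on both replicate 2 arrays and the dimmer one on both replicate 1 arrays, so the probe sets of this gene ordered the pools in opposite ways.

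**Figure D2:**
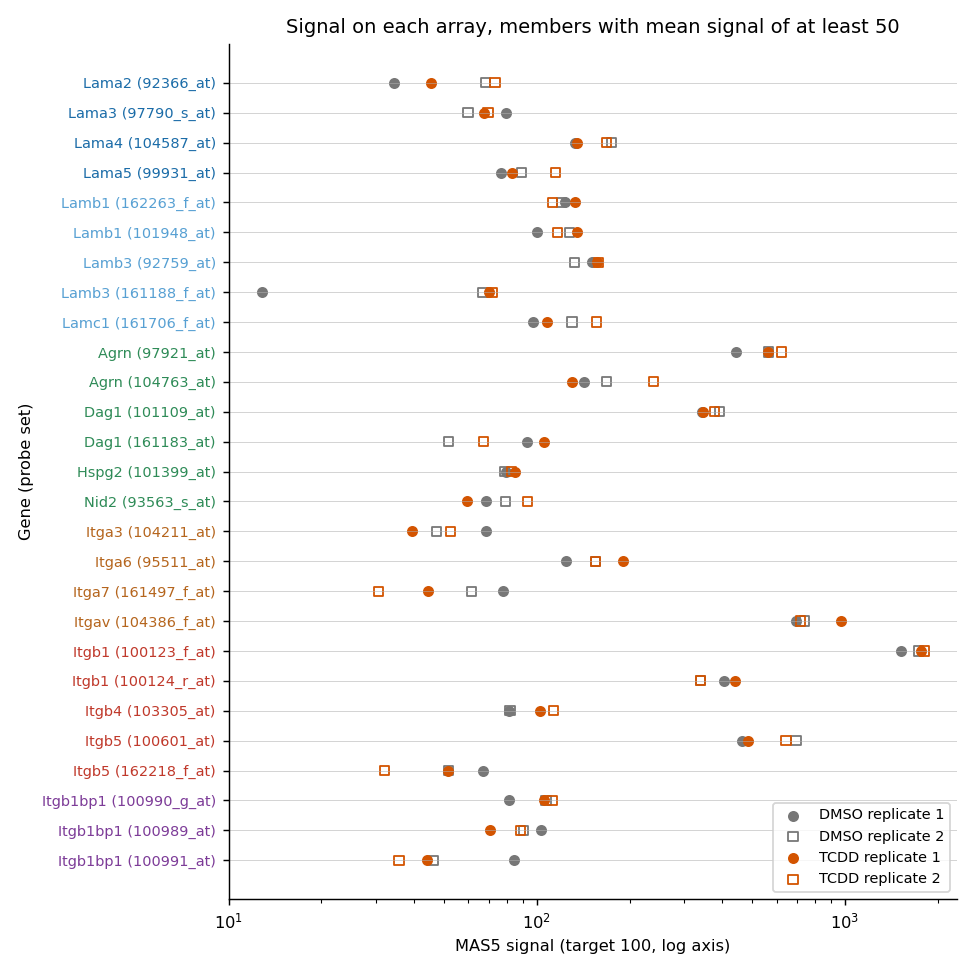
MAS5 signal on each of the 4 arrays for the 27 probe sets with a mean of at least 50, on a log axis. Grey marks DMSO and orange TCDD, filled circles are replicate 1 and open squares replicate 2, and label colours mark the roles. The squares lie to the right of the circles in both colours for 13 probe sets. Among them are those of Lama2, Lama4, Lama5, Lamc1 and Nid2 and the brighter one of Itgb5.

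Of the integrin beta subunits, Itgb1 pairs with most alpha subunits that bind laminin, collagen and fibronectin. Its brighter probe set (100123_f_at) had signals of 1520.4 and 1729.9 on the DMSO arrays and of 1765.3 and 1808.9 on the TCDD arrays. The groups did not overlap, and the log2 difference of 0.14 ± 0.16 (SE) was 0.05 without DMSO replicate 1 and 0.23 without DMSO replicate 2. The other probe set (100124_r_at) had 405.0 and 340.7 on the DMSO arrays and 440.3 and 339.9 on the TCDD arrays, with overlap and a difference of 0.06 on the log2 scale. Itgb5 pairs with Itgav in a vitronectin receptor. It had 463.3 and 693.0 on the DMSO arrays and 485.7 and 643.8 on the TCDD arrays (100601_at), a difference of -0.02 ± 0.23 (SE) on the log2 scale, with both replicate 2 arrays well above both replicate 1 arrays. Its dimmer probe set (162218_f_at) had 67.1 and 51.6 on the DMSO arrays and 51.5 and 32.1 on the TCDD arrays. The log2 difference of -0.4 ± 0.26 (SE) was -0.15 without TCDD replicate 2 and -0.64 without TCDD replicate 1. It was -0.52 at an offset of 1 and -0.22 at an offset of 64. Without DMSO replicate 1 the mean signal of this probe set was under the minimum. Itgb3, a beta subunit of platelets and osteoclasts, had signals between 1.4 and 5.5.

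Itgb4 pairs with Itga6 in the laminin receptor of hemidesmosomes. It had signals of 81.1 and 81.9 on the DMSO arrays and of 102.5 and 113.2 on the TCDD arrays (103305_at). Both TCDD arrays were above both DMSO arrays, a ratio of mean signals of 1.32, and the log2 difference of 0.34 ± 0.21 (SE) had a 95% interval from -0.12 to 0.81 and did not pass the limma test (adjusted p 0.997). Without each array in turn it stayed between 0.28 and 0.41. Itga6 had 124.3 and 155.1 on the DMSO arrays and 190.6 and 154.9 on the TCDD arrays (95511_at). One TCDD array was the highest of the 4, the other lay at the level of DMSO replicate 2, and the log2 difference was 0.28 ± 0.22 (SE).

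Epithelial markers were read on the same arrays. The summed signal of the 9 epithelial markers on the array was 2903.7 and 3925.3 on the DMSO arrays and 3958.6 and 4408.5 on the TCDD arrays. Of the 6 measured, 4 were higher and 2 lower in TCDD, with a median log2 difference of 0.2 and 0 past the adjusted p of limma (1 at an unadjusted p under 0.05, Perp). The 2 lower were Shh and Cdh1. Cdh1 had 170.3 and 141.1 on the DMSO arrays and 101.2 and 120.5 on the TCDD arrays, a log2 difference of -0.44 ± 0.21 (SE). Most of the sum came from Krt17 and Dsp, with mean signals of 1512.9 and 1307.2, and Krt5, Krt14 and Krt15 added almost nothing. The part of the epithelial share in the values of Itgb4, Itga6 and Lamb3 was not tested. Col17a1, a transmembrane collagen of hemidesmosomes, had 183.5 and 168.0 on the DMSO arrays and 280.7 and 216.2 on the TCDD arrays, a log2 difference of 0.45 ± 0.21 (SE; limma adjusted p 0.997). Plec, which links hemidesmosomes to keratin, had 62.0 and 63.0 on the DMSO arrays and 56.5 and 72.4 on the TCDD arrays.

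Itga7 encodes the laminin-binding alpha subunit best known from skeletal muscle. Its brightest probe set (161497_f_at) had signals of 77.5 and 61.5 on the DMSO arrays and of 44.5 and 30.7 on the TCDD arrays. The groups did not overlap, the ratio of mean signals was 0.541, and the log2 difference of -0.68 ± 0.25 (SE) had an unadjusted p of 0.0206 and an adjusted p of 0.997 in limma. Another probe set (93061_at) had 34.8 and 13.4 on the DMSO arrays and 5.8 and 8.2 on the TCDD arrays, and the remaining one (160086_at) had 7.2 and 3.4 on the DMSO arrays and 2.5 and 2.3 on the TCDD arrays. All 3 probe sets had both TCDD arrays below both DMSO arrays. For the brightest one the log2 difference was -0.88 at an offset of 1 and -0.39 at an offset of 64. Without DMSO replicate 1 the mean signal of this probe set was under the minimum. Its value on TCDD replicate 2 had been stored as a day serial, and with such serials set to 16 it was likewise under the minimum and not tested. Both dimmer ones lie in a range where many probe sets did so: of the 6639 probe sets under the minimum, 26.2% had TCDD lower without overlap and 6.88% had TCDD higher. The median signal of those dim probe sets was 14.9 on DMSO replicate 1 and between 9.8 and 10.5 on the other 3 arrays.

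Skeletal muscle markers lay in the other direction on average. All 5 measured had a higher mean in TCDD, by 0.02 (Myog) to 0.62 (Tnnt1) on the log2 scale, with a median of 0.32. For all 5 the groups overlapped, and 0 of them passed limma's adjusted p or had an unadjusted p under 0.05. Their larger spread was between replicates: the summed signal of the 11 markers on the array was 967.4 in DMSO replicate 1 and 1320.3 in TCDD replicate 1, against 414.1 and 489.4 in the replicate 2 arrays. The brightest Itga7 probe set was also higher on replicate 1 in each group, while Lama2 was higher on replicate 2. The part of muscle in these values was not tested.

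Itgav, the alpha subunit of RGD-binding receptors, had signals of 695.4 and 740.8 on the DMSO arrays and of 967.5 and 715.2 on the TCDD arrays on its brightest probe set (104386_f_at). TCDD replicate 1 alone was high, and the log2 difference was 0.21 ± 0.19 (SE). Its other probe sets, with mean signals of 37.2 and 30.7, differed by -0.37 and -0.23. Itga3, a laminin receptor subunit of epithelia, had 68.3 and 47.4 on the DMSO arrays and 39.3 and 52.4 on the TCDD arrays on one probe set (104211_at), and 22.2 and 31.6 on the DMSO arrays and 41.7 and 54.3 on the TCDD arrays on the other (104210_at). The first differed by -0.25 and the second, dimmer one by 0.58 on the log2 scale, so the direction for Itga3 depended on the probe set.

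Further alpha subunits of matrix receptors were dim throughout. Itga2, of a collagen receptor, had 39.5 and 16.7 on the DMSO arrays and 12.1 and 15.3 on the TCDD arrays. Itga5, of the fibronectin receptor, lay between 14.6 and 25.2, and the probe sets of Itga4 and Itga8 lay between 2.7 and 19.0 and between 0.9 and 9.2. Without detection calls, a low signal does not show that a transcript was absent.

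Itgb1bp1, which encodes a cytoplasmic protein that binds the tail of the Itgb1 product, had 3 probe sets above the minimum that disagreed. The first (100990_g_at) had 81.1 and 107.1 on the DMSO arrays and 105.2 and 112.1 on the TCDD arrays. The second (100989_at) had 103.3 and 90.4 on the DMSO arrays and 70.4 and 88.7 on the TCDD arrays, and the other (100991_at) had 84.4 and 46.2 on the DMSO arrays and 44.0 and 35.7 on the TCDD arrays. The log2 differences were 0.19 ± 0.22, -0.24 ± 0.22 and -0.5 ± 0.28 (SE). On the second and the last the groups did not overlap, with TCDD lower. The second was -0.11 without TCDD replicate 1 and -0.38 without TCDD replicate 2. The last was -0.85 without DMSO replicate 2, -0.64 at an offset of 1 and -0.3 at an offset of 64. Without DMSO replicate 1 its mean signal was under the minimum.

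Integrin subunits of leukocytes were all under the minimum. Itgb2, the beta subunit of phagocytes and lymphocytes, had signals of 6.6 and 6.3 on the DMSO arrays and of 13.5 and 9.1 on the TCDD arrays. Itgal, a partner of Itgb2 in lymphocytes, had 6.1 and 7.4 on the DMSO arrays and 10.8 and 18.2 on the TCDD arrays. Both were higher on each TCDD array, while the other partners Itgam, between 1.6 and 7.9, and Itgax, with 40.6 and 30.7 on the DMSO arrays and 19.2 and 17.3 on the TCDD arrays, were lower on each. Among all probe sets under the minimum 6.88% were higher on each TCDD array and 26.2% lower on each. Itgae, of intraepithelial lymphocytes, lay between 1.0 and 6.4 and was lower on each TCDD array on both its probe sets. Itgb2l lay between 6.4 and 13.0, and the brighter probe set of Itgb7, a beta subunit of lymphocytes, between 31.4 and 41.5. Without the filter, limma gave adjusted p-values of 0.979 or more for every one of these 9 probe sets, where 0.0161% of all 12422 passed.

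Leukocyte and macrophage markers were measured beside them. Of 9 measured, 8 were higher in TCDD, 3 of them at an unadjusted p under 0.05 and 0 after adjustment in limma, and the summed signal of the 12 on the array was 897.2 and 816.6 on the DMSO arrays and 1036.6 and 1051.4 on the TCDD arrays. Ptprc, the pan-leukocyte antigen, had signals between 1.6 and 10.0. Under the minimum, Ptprc differed by 0.28, Adgre1 by -0.28 and Fcgr3 by -0.33 on the log2 scale. The part of leukocytes in the values of Itgb2, Itgal, Itgam, Itgax and Itgae was not tested. The 4 platelet markers on the array, which bear on Itgb3, were all under the minimum.

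For most members, as for most probe sets tested, spread between pools was larger than the difference between groups. For 24 of the 27 tested probe sets the larger gap between replicate arrays of a group exceeded the TCDD difference. This held for 82.7% of all probe sets tested, so the members lay near the background. The measure sets the larger of 2 gaps between single arrays against a difference of means, so the gap tends to be the larger. In 13 of the 27 replicate 2 was above replicate 1 in both groups, against 30.8% of all, and in 7 the reverse held, against 28.2%. The 13 included 3 of 4 probe sets of laminin alpha chains, 2 of 5 of beta and gamma chains, and 4 of 6 of nidogen, perlecan, agrin and dystroglycan. For integrin alpha subunits the count was 0 of 4, and for beta subunits 3 of 5. Lama2 had the widest such spread that both groups shared, 0.74 in DMSO and 0.54 in TCDD on the log2 scale, followed by Itgb5 (100601_at) with 0.56 and 0.4. The dimmer probe set of Dag1 had a spread of like size the other way, -0.69 and -0.55. These counts describe 4 arrays, and replicate number cannot be told apart from the amount of RNA labelled.

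**Figure D3:**
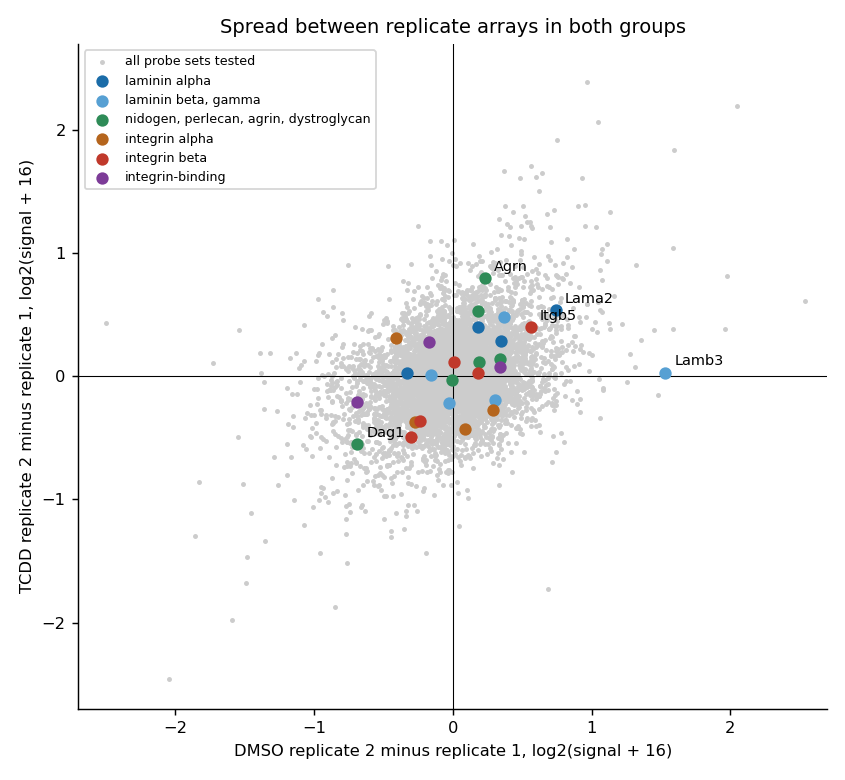
Replicate 2 minus replicate 1 on the scale of log2(signal + 16), in DMSO on the horizontal and in TCDD on the vertical axis. Grey points are the 5783 probe sets tested and coloured points the 27 of laminins, linkers and integrins by role. Of the coloured points 13 lie at the upper right and 7 in the lower left, and Lamb3 stands at the right because of its low signal on DMSO replicate 1.

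Probe sets of the same gene often disagreed. Of 17 genes with several probe sets, 9 had log2 differences of the same sign on all of them and 8 did not, as the plot of probe sets per gene shows. In 7 genes at least 2 probe sets were above the minimum. Agrn, Itgb1, Itgb5, Lamb1 and Lamb3 kept their sign there, and Dag1 and Itgb1bp1 did not. For Lama5 the brighter probe set differed by 0.21 and the dimmer one (161702_f_at) by -0.45. For Lamc1 these values were 0.18 and -0.22 (102404_at), and for Lama4 -0.02 and -0.39 (161793_at). Each of the 3 dimmer probe sets had both TCDD arrays below both DMSO arrays, as did 26.2% of all probe sets under the minimum. Names ending in _f_at and _s_at mark probe sets whose probes can match related transcripts, so their values are uncertain as to the gene.

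**Figure D4:**
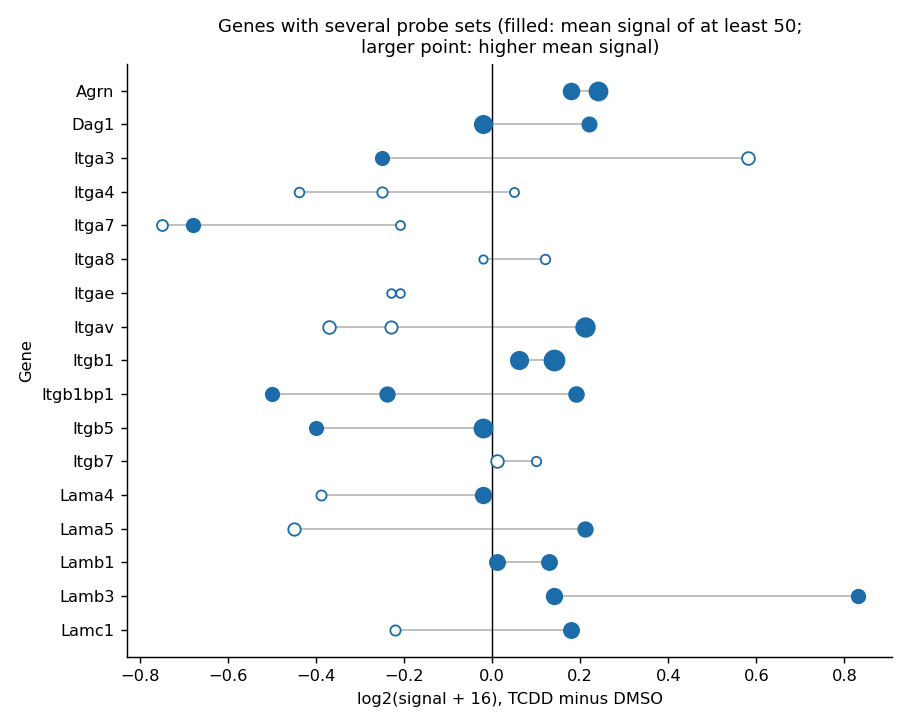
TCDD minus DMSO on the scale of log2(signal + 16) for each probe set of the 17 genes that have several. Filled points have a mean signal of at least 50, larger points a higher mean, and a line joins probe sets of a gene. The 3 probe sets of Itga7 lie at -0.75, -0.68 and -0.21, while those of Itga3 lie at -0.25 and 0.58.

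Of 78 other measured genes of cell-matrix adhesion 0 passed limma's adjusted p and 3 had an unadjusted p under 0.05 (Col7a1, Thbs2 and Lgals3), which is near the 2.59% of all 5783 probe sets tested. Each gene was represented by its brightest probe set. Of 14 measured basement membrane collagens and linked proteins, 4 were higher and 10 lower in TCDD (median log2 difference -0.07). Col7a1, the collagen of anchoring fibrils, had 176.2 and 184.2 on the DMSO arrays and 81.5 and 139.5 on the TCDD arrays, a log2 difference of -0.67 ± 0.25 (SE). Npnt, which encodes nephronectin, a ligand of integrins, had 398.3 and 417.0 on the DMSO arrays and 594.3 and 470.4 on the TCDD arrays. The chains of collagen IV, Col4a1 and Col4a2, differed by 0.18 and -0.09 on the log2 scale.

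Among 13 measured other ligands of integrins 7 were higher and 6 lower (median 0.14). Thbs2, a thrombospondin gene, differed most, with 130.2 and 77.9 on the DMSO arrays and 168.7 and 185.2 on the TCDD arrays, a log2 difference of 0.72 ± 0.24 (SE). Of 20 measured adaptors and signalling genes of integrins 14 were higher and 6 lower (median 0.13). Crkl, an adaptor, differed by 0.32 ± 0.2, Cav1, which encodes caveolin, by 0.27 ± 0.21, and Tln1, which encodes talin, by -0.24 ± 0.19 (SE, log2). Among 15 other laminin receptors and hemidesmosome genes 8 were higher and 7 lower (median 0.03). Lgals3, which encodes a laminin-binding lectin, had 140.0 and 120.9 on the DMSO arrays and 220.3 and 209.7 on the TCDD arrays, a log2 difference of 0.66 ± 0.2 (SE), and Lgals1, a related lectin, differed by -0.35 ± 0.17 (SE).

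The dystrophin complex and the enzymes that glycosylate dystroglycan had 4 measured genes, 2 higher and 2 lower. Sspn, which encodes sarcospan, differed by 0.33 and Sgce, a sarcoglycan gene, by -0.32 on the log2 scale. Of 12 measured proteases and inhibitors that act on laminins, integrins or matrix, 5 were higher and 7 lower (median -0.02). Pcsk6, a proprotein convertase gene, differed by 0.47 ± 0.22, and Timp1, which encodes a metalloproteinase inhibitor, by -0.34 ± 0.19 (SE, log2). All named genes of these lists had a limma adjusted p of 0.997.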

How the data were processed

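Intensity signals were deposited by the authors, who per the labels used Affymetrix Microarray Suite 5.0 (MAS5) and scaled each array to a target of 100. Genome build and detection calls are not given in the sources used here. Of 49952 cells, 18515 (37.1%) held whole numbers from 38718 to 38990, the day serials of a spreadsheet. They were turned back into day.month, all signals under 32. The members had 79 such cells of 220, in 28 of 55 probe sets. After this, each array had a mean of 100.05 (2% trimmed from both ends). Gene symbols came from the platform annotation, checked by Entrez ID against GRCm38.p6 (0 symbols changed).

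TCDD was compared with DMSO by limma 3.58.1 in R 4.3.3 (lmFit, eBayes with trend) on log2(signal + 16), over the 5783 probe sets whose signal averaged at least 50, with Benjamini-Hochberg adjustment and a threshold of 0.05. The 66 control probe sets were left out. The fit was tested on simulated data with independent errors between arrays, so the test does not cover replicate differences shared by the groups. An exact permutation test of 2 against 2 arrays has 0.33 as its smallest two-sided p and was left out. The number of arrays limits the precision. Every member gene is named, with signals per array for those reaching the minimum, statistics for those whose groups do not overlap or that have the smallest p, and up to 3 genes per list by p; other values and genes named were chosen after the values were seen. Members and lists were chosen with earlier results of these data known. The alternatives were offsets, filters, normalization, variance trend, the serials, a replicate block, averaging per gene and leaving out each array.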

Additional observations from a re-analysis of the deposited data

How the results depend on the processing

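The count of laminin, nidogen and integrin probe sets past the limma test was 0 under all alternatives run, as was that of the listed adhesion genes where it was run (not with probe sets averaged per gene). The median difference of the members was 0.01 without the filter, against 0.13, and ran from 0.01 to 0.16 when each array was left out in turn. All probe sets under the minimum, members or not, had a median of -0.1. Over all probe sets the count past limma's adjusted p of 0.05 was 4, against 2 without the filter, and ran from 2 to 5 when each array was left out. With a replicate block it was 32. The labels do not say that the numbers pair the pools, and over 5783 probe sets the replicate differences of both groups correlated with r = 0.381. With the block, the lowest adjusted p among the 9 probe sets followed singly was 0.0575, for the dimmer Lamb3 probe set, so the block changed no call among them. None of their 105 alternative values reversed. This was largely fixed beforehand, since their groups do not overlap and neither another offset nor leaving out an array can change the sign. A group left with 1 array is assumed to vary like the other. No detection calls were used, so how far signals under 50 stand above background is not known.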
